A study of Mus musculus with 3 samples.

Results

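Cluster 11 of the Ob library was a group of macrophage-like nuclei from the epididymal fat of obese mice, in which Cd163, the scavenger receptor for hemoglobin, stood at a moderate level. Its members were chosen by measured values, since the authors had grouped the nuclei of the library by their own transcripts and the cluster was picked out for a Cd163 level between those of clusters 3 and 20. All levels within the Ob library are therefore a description with no test. The cluster held 1531630 of the 111595518 UMIs (single transcript molecules) in the 21 clusters of Ob, or 1.37% (95% exact binomial interval 1.3703 to 1.3746), and the 3 libraries of the study held 223241660. This share mixes the number of nuclei with the RNA in each, which cannot be told apart.

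Each of the 3 libraries pooled nuclei of epididymal fat from 8 male C57BL/6J mice, bought at 5 weeks of age. Ctrl mice had ordinary food. Mid_Ob and Ob mice had a high-fat diet, given as 60% with no unit stated. These mice were taken when body weight lay more than 10% (Mid_Ob) or 20% (Ob) above the mean of the control mice. With 1 pooled library per stage no difference has a replicate check. Levels are CPM, the UMIs of a gene per 1000000 UMIs of the cluster, and intervals in parentheses are 95% intervals that cover counting error only, since UMIs of 1 pool are not independent animals.

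Fat tissue holds resident macrophages, which lie along vessels and among stromal cells, take up debris and free hemoglobin and carry the receptors Cd163, Mrc1 and Lyve1. In obesity, monocytes enter through the receptor Ccr2, and lipid-associated macrophages with Trem2, Gpnmb and a large lysosomal compartment gather around dying adipocytes. Csf1r, the receptor for the growth factor CSF1, marks the whole lineage. Macrophages also make C1q, the first component of the classical complement pathway, and present peptides on MHC class II.

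The markers of macrophages, a list that holds the 3 genes named in the choice of the cluster (Cd163, Mrc1 and Csf1r), describe the cluster and do not test its label. With at least 10 counts required, 13 of 14 macrophage markers stood more than 2-fold over their median level elsewhere in Ob, against 14 in cluster 14, 9 each in clusters 3 and 20, 6 in cluster 1 and 2 in cluster 2, whose place among the 6 macrophage-like clusters (1, 2, 3, 11, 14 and 20) comes from an earlier naming of the clusters. Clusters 6 and 13, which are not among these, had 7 each, and clusters 10 and 18, also not among them, had 5 each. The 14 markers summed to 8630.0 CPM, while clusters 20, 14 and 3 had 8692, 6029.9 and 5878. Against all other nuclei of Ob, the 10 leading genes among those over 0.5 UMI per nucleus of median size were Lyve1, Ms4a4a, Ms4a6b, F13a1, Adgre4, Cd163, Ednrb, Ms4a6c, C1qa and Fcgr2b, at 10.2-fold for Lyve1 to 6.01-fold for Fcgr2b. Among the 6 macrophage-like clusters, cluster 11 held 7.01% of the UMIs.

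Cd163 (ENSMUSG00000008845) stood at 460.3 CPM (426.9 to 495.6) in cluster 11, from 705 UMIs. Of the other macrophage-like clusters, cluster 20 stood at 1180.4, cluster 14 at 233.9 and cluster 3 at 144.5, while clusters 1 and 2 stood lowest (9.5 in cluster 2). Cluster 11 was thus 3.19-fold (2.89 to 3.51) over cluster 3 and 1.97-fold (1.62 to 2.41) over cluster 14, and cluster 20 was 2.56-fold (2.35 to 2.80) over cluster 11. As Cd163 chose the cluster, its place in this order is given by the rule. Mrc1 (ENSMUSG00000026712), the mannose receptor, kept the order at 2377 CPM (2300.0 to 2455) in cluster 11 and 3142, 1558 and 1248 in clusters 20, 14 and 3, with ratios of 1.90-fold (1.83 to 1.98) to cluster 3 and 1.32-fold (1.27 to 1.38) for cluster 20 over cluster 11. Csf1r (ENSMUSG00000024621) did not follow Cd163. It stood at 363 CPM (334 to 395) in cluster 11, the highest level of the 21 clusters, but cluster 20 at 344.5 could not be told from it at this depth (1.05-fold, 0.937 to 1.19), and clusters 3 and 14 stood lower at 246.3 and 239.7.

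**Figure D1:**
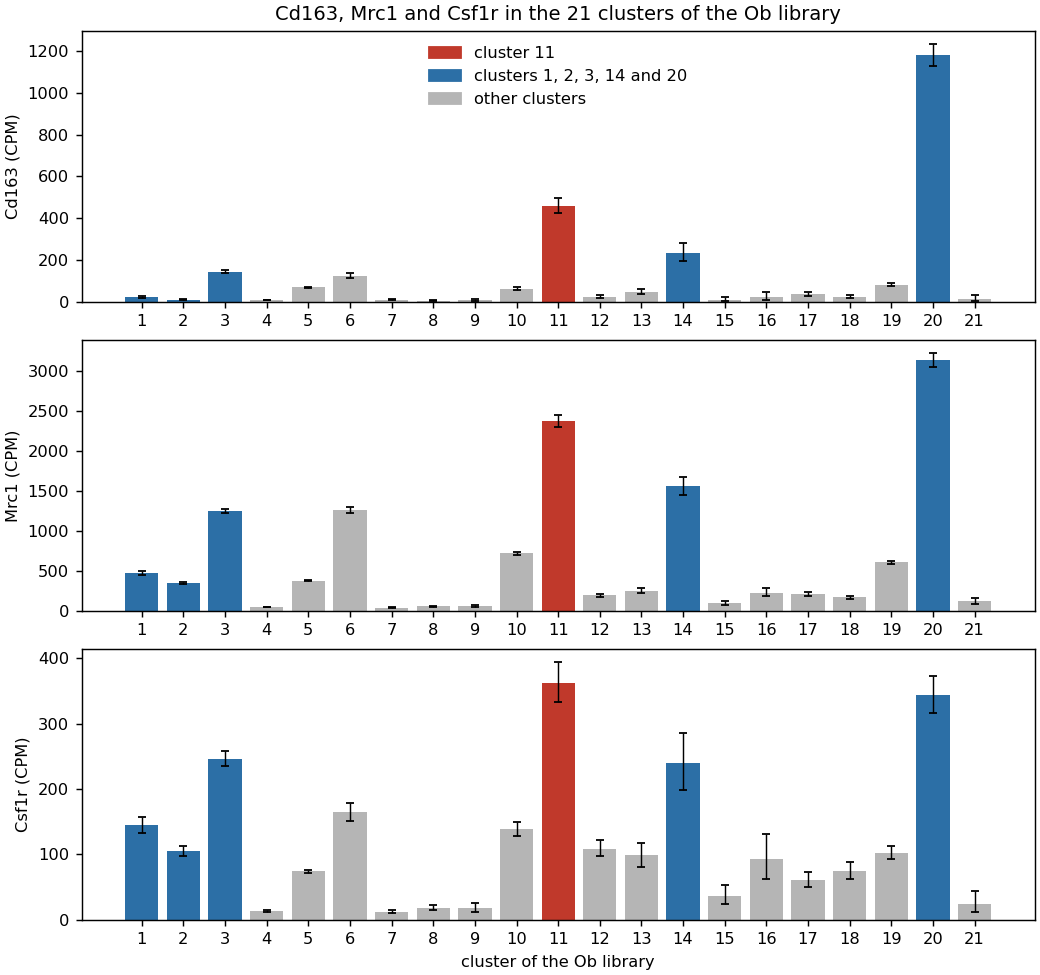
CPM of Cd163, Mrc1 and Csf1r in the 21 clusters of the Ob library, with bars for the level, lines for the 95% Poisson interval (counting error only), red for cluster 11, blue for the 5 other macrophage-like clusters and gray for the rest. Cluster 11 is second to cluster 20 in Cd163 (460.3 against 1180.4) and Mrc1 (2377 against 3142), and not told apart from it in Csf1r (363 against 344.5).

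The place of cluster 11 beside clusters 3 and 20 is described here for genes picked for differing at least 2-fold between that pair. Of 272 genes at least 2-fold higher in cluster 20 than in cluster 3, 262 had a level in cluster 11 between the pair, and of 311 genes at least 2-fold lower in cluster 20, 287 did. Cluster 14 also lay between the pair for 214 and 263 genes of these sets, and cluster 6 for 122 and 210. On a log2 scale that runs from 0 at cluster 3 to 1 at cluster 20, the median position of cluster 11 was 0.55 (quartiles 0.42 and 0.69) for the first set and 0.57 (0.37 and 0.70) for the second. Cluster 14, the next by Cd163, lay nearer to cluster 3, at 0.20 and 0.32. Cluster 6 had a median of -0.0002 for the first set, level with cluster 3 and with 136 genes beyond it, and of 0.45 for the second. Clusters 1 and 2 lay beyond cluster 3, at medians of -0.47 and -0.64 for the first set. The sets were cut from the same library that gave the clusters, and cluster 11 was picked for a Cd163 level between this pair. No share over all genes is given beside these counts, so nothing is read from the counts or the positions. Single nuclei were not used here, so whether each nucleus held such levels was not tested.

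**Figure D2:**
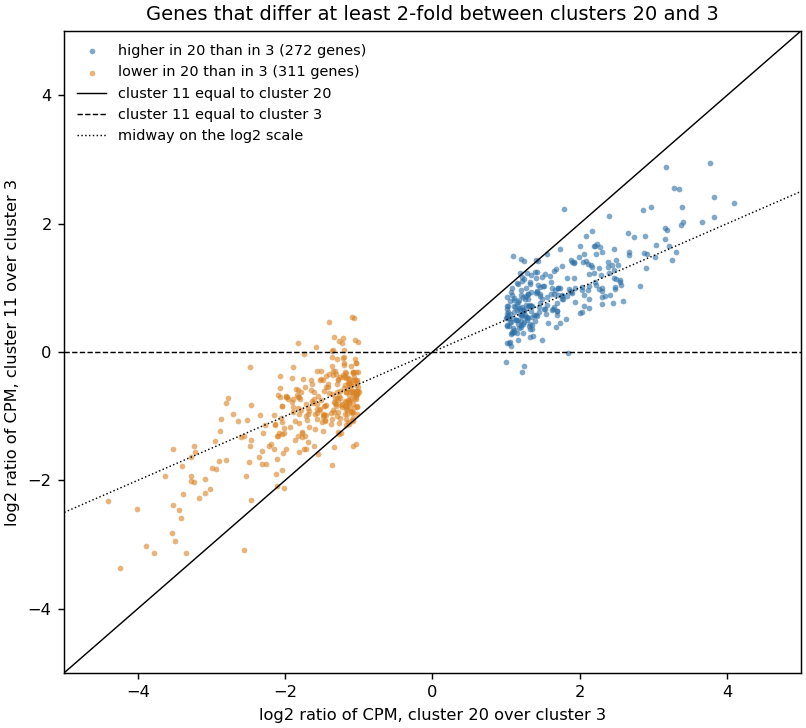
Each point is a gene that differs at least 2-fold between clusters 20 and 3 of Ob with a mean of at least 30 CPM over clusters 3, 11 and 20, the x axis is the log2 ratio of cluster 20 over cluster 3 and the y axis that of cluster 11 over cluster 3. The dashed line is cluster 11 equal to cluster 3, and the solid line is cluster 11 equal to cluster 20. Between these lines lie 262 of the 272 genes on the right and 287 of the 311 on the left. Genes and clusters came from the same library, so nothing is read from these counts.

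Over whole profiles the order of likeness was close. Across 6416 genes with a mean of at least 30 CPM over the clusters of Ob, the Pearson correlation of log2(CPM + 10) with cluster 11 was 0.958 for cluster 20, 0.955 for cluster 14, 0.949 for cluster 3 and 0.920 for cluster 6, a cluster rich in the monocyte receptor Ccr2, while clusters 1 and 2 stood at 0.892 and 0.846. Cluster 10, which is not among the macrophage-like clusters, stood at 0.877, between clusters 1 and 2. Genes are not independent replicates, the clusters share 1 library and its free RNA, and the first 3 values lay close together. With a mean of at least 100 CPM, cluster 14 came first, and cluster 20 stood at 0.942.

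Genes of resident macrophages were higher in cluster 11 than in cluster 3 and mostly lower than in cluster 20. Against cluster 3, 11 of the 15 listed genes past the minimum (a mean of 30 CPM in the pair) were at least 2-fold higher and 0 lower, with a median log2 ratio of 1.43. Over all 5681 genes past that minimum the median was -0.03, with 192 genes (3.38%) at least 2-fold higher and 140 (2.46%) at least 2-fold lower. Against cluster 20, 0 of 18 were higher and 4 lower, with a median of -0.47, beside 239 (4.31%) higher and 93 (1.68%) lower among 5539 genes and a median of 0.03. The list holds Cd163 and Mrc1, which were named in the choice of the cluster. Cd163 is counted among the genes higher than in cluster 3 and those lower than in cluster 20, as the rule gives. As the clusters had also been cut from these genes, nothing is read from the shares.

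F13a1, the A chain of coagulation factor XIII, reached 3246 CPM in cluster 11. Clusters 3, 14 and 20 had 849, 1527 and 7584. Lyve1, the hyaluronan receptor of macrophages near vessels, stood at 139.7 in cluster 11 and at 24.0, 61.9 and 245.1 in clusters 3, 14 and 20, which put cluster 11 5.83-fold (4.73 to 7.18) over cluster 3. Cd209f, a C-type lectin, stood at 78.3, 10.1, 21.3 and 137.5, and Cbr2, a carbonyl reductase, at 85.5, 18.3, 27.1 and 133.4. In all of these genes cluster 11 was second among the macrophage-like clusters, as in Cd163.

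In some members clusters 11 and 20 were close. Maf, a transcription factor of resident macrophages, had 1175 CPM, close to the 1271 of cluster 20, where cluster 3 had 546. Mgl2, a galactose lectin, stood at 169.8 and 167.3 (1.01-fold, 0.855 to 1.20), against 62.8 in cluster 3, and Selenop, the selenium carrier, at 925 and 862 (1.07-fold, 0.997 to 1.16), against 499. Timd4, a receptor for phosphatidylserine on long-lived resident macrophages, was lower in cluster 11 (28.7 CPM) than in clusters 14 (52.2) and 20 (69.6), where cluster 20 was 2.42-fold (1.70 to 3.51) over it. Of the Cd209 lectins next to Cd209f, Cd209b stood at 47.7 in cluster 11 and 163.2 in cluster 20, Cd209g at 55.5 and 121.1, and Cd209d at 42.4 and 112.9. These lectin genes are near copies of each other, so reads could be split among them.

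Genes of lipid-associated macrophages ran the other way. Against cluster 3, 0 of 15 were at least 2-fold higher in cluster 11 and 8 lower (median -1.03). Against cluster 20, 8 of 13 were higher and 0 lower (median 1.09). The shares over all genes were 3.38% higher and 2.46% lower against cluster 3, and 4.31% and 1.68% against cluster 20. The clusters had been cut from these genes, so nothing is read from the counts. Gpnmb, a transmembrane glycoprotein made by lipid-filled cells, had 127.3 CPM in cluster 11. Clusters 3, 14 and 20 had 664, 245.5 and 57.9, so that cluster 3 was 5.22-fold (4.52 to 6.05) over cluster 11 and cluster 11 was 2.20-fold (1.72 to 2.83) over cluster 20. Mmp12, the macrophage elastase, stood at 90.8 in cluster 11 and at 502, 156.6 and 46.2 in the same 3 clusters. Trem2, the lipid receptor that names this state, stood at 41.8 (64 counts) against 85.4, 58.0 and 20.5. Atp6v0d2, a subunit of the lysosomal proton pump, stood at 315 in cluster 11 and 983 in cluster 3, and Itgax, the integrin CD11c, at 10.4 and 52.2. In these genes cluster 11 lay between clusters 3 and 20. Fabp4 (1671 CPM against 770 in cluster 20 and 920 in cluster 3), a fatty acid carrier that adipocytes make in bulk, lay above both.

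Among the genes furthest from cluster 3, the chemokine Ccl8 had 79.0 CPM, 7.39-fold (5.49 to 10.0) over the 10.7 of cluster 3, while cluster 20 had 95.9. Retnla, a secreted product of alternatively activated macrophages, stood at 280.1 against 59.8 in cluster 3 and 207.1 in cluster 20, and Ltc4s, which makes leukotriene C4, at 142.3 against 32.8. Chst11, a chondroitin sulfotransferase, stood at 15.7 in cluster 11 and 137.1 in cluster 3, and Zranb3, a DNA repair enzyme, at 20.2 and 171.8. Against cluster 20, the highest ratios included Adam8, a membrane protease (61.4 and 15.2 CPM), Mpeg1, the pore-forming perforin-2 (116.2 and 29.8), and Cd52 (53.5 and 14.6). The lowest included Ednrb, the endothelin receptor B (207.0 in cluster 11 and 681.5 in cluster 20), Sema6a, a guidance protein of the cell membrane (71.8 and 242.2), and the lectin Cd209c (13.1 and 57.3).

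**Figure D3:**
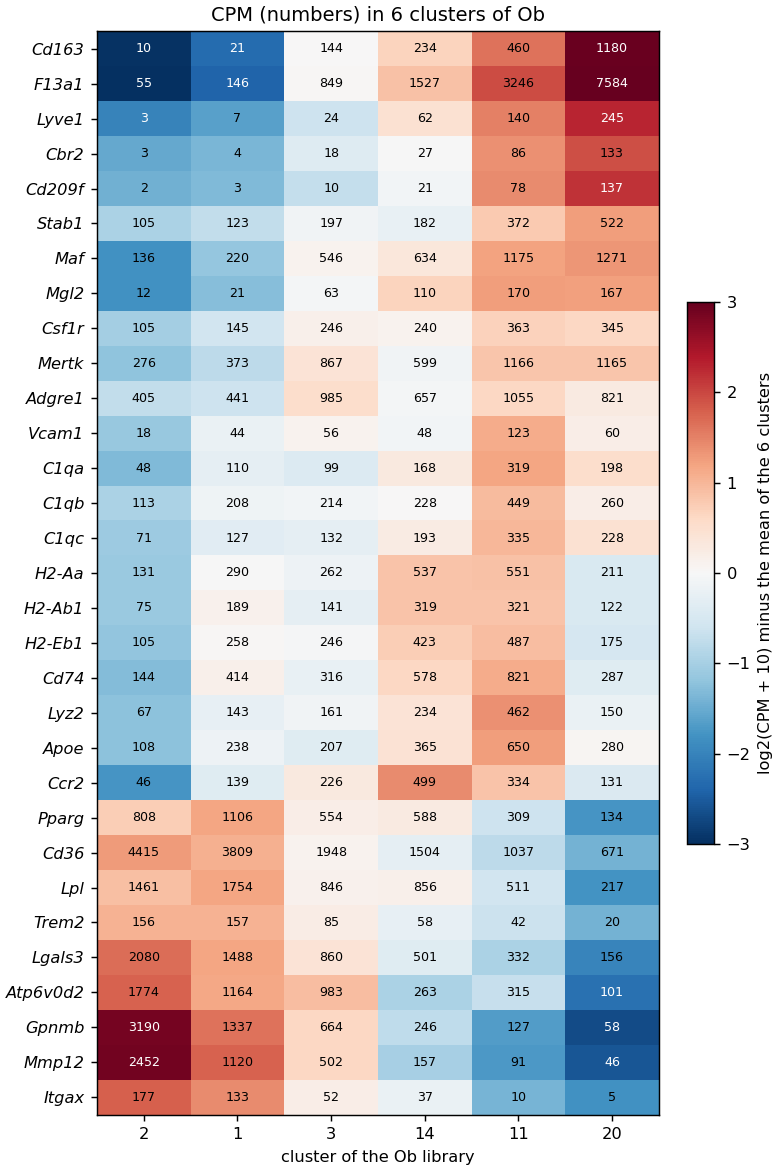
CPM of 31 genes in the 6 macrophage-like clusters of Ob, ordered by Cd163 from left to right, printed as numbers and coloured by log2(CPM + 10) minus the mean of the 6 clusters. Resident genes such as F13a1 (3246 in cluster 11) climb to the right, Gpnmb (127.3) and Mmp12 (90.8) to the left, and C1q, MHC class II, Lyz2 and Apoe peak in cluster 11 or in clusters 11 and 14.

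Some genes were higher in cluster 11 than in any other cluster. Of the 6416 genes, 174 (2.71%) had their highest level of all 21 clusters there, as did 444 genes for cluster 20, 109 for cluster 3 and 116 for cluster 14. The gene with the largest ratio to the next cluster was Vcam1 (ENSMUSG00000027962), the adhesion receptor that holds leukocytes through the integrin VLA-4, at 123.4 CPM (106.4 to 142.3). Among the other macrophage-like clusters it ran from 17.8 in cluster 2 to 55.8 in cluster 3 and 60.2 in cluster 20. Cluster 11 stood 2.05-fold (1.60 to 2.63) over cluster 20 and 2.21-fold (1.85 to 2.64) over cluster 3. All 3 C1q genes were among the first 6 of this order. C1qa (ENSMUSG00000036887) stood at 319 CPM, 1.61-fold (1.40 to 1.86) over cluster 20 and 3.21-fold (2.85 to 3.61) over cluster 3. C1qb (ENSMUSG00000036905) stood at 448.5, 1.73-fold (1.53 to 1.95) and 2.10-fold (1.91 to 2.30) over the same clusters, and C1qc (ENSMUSG00000036896) at 335, 1.47-fold (1.29 to 1.68) and 2.53-fold (2.27 to 2.82). Over the next of all clusters for each gene, the log2 ratio was 0.48 for C1qa and 0.69 for C1qb, both smaller than over cluster 20. For C1qc, where cluster 20 was the next, it was 0.56. Together the C1q genes summed to 1102 CPM in cluster 11, against 685 in cluster 20, the next of all clusters, 589.6 in cluster 14 and 445.4 in cluster 3. Arrb2, an arrestin (142.3 CPM, and 100.5 and 85.4 in clusters 3 and 20), Cfp, the complement activator properdin (103.8, 58.9 and 78.4), and Fcgr3, an activating Fc receptor (118.2, 69.2 and 93.6), were also highest there.

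The promoters of C1qb and C1qc are shown since both genes were highest in cluster 11, beside those of Cd163 and Mrc1, which were highest in cluster 20. The sequences are the 250 bases before the RefSeq start site in GRCm38.p6, on the strand of the gene, 5′ to 3′. Capitals mark GAGGAA, the core bound by the myeloid factor PU.1 (encoded by Spi1), searched on both strands, where the other strand reads TTCCTC. The windows lie at chr4:136886201-136886450 (minus strand, C1qb), chr4:136892915-136893164 (minus strand, C1qc), chr6:124304401-124304650 (plus strand, Cd163) and chr2:14229164-14229413 (plus strand, Mrc1).
C1qb: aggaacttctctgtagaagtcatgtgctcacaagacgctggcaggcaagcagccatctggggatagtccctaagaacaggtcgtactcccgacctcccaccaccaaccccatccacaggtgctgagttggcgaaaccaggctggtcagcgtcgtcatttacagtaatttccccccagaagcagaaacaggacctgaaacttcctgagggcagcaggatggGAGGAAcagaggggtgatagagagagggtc
C1qc: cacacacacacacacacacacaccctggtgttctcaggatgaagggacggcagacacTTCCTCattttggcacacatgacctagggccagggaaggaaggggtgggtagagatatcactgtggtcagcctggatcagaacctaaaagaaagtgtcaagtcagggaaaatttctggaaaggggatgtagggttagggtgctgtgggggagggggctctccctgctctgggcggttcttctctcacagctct
Cd163: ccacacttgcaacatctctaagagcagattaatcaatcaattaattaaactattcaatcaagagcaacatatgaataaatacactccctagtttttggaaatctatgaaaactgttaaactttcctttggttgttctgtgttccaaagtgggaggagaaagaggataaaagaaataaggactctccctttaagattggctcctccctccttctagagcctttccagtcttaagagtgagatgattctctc
Mrc1: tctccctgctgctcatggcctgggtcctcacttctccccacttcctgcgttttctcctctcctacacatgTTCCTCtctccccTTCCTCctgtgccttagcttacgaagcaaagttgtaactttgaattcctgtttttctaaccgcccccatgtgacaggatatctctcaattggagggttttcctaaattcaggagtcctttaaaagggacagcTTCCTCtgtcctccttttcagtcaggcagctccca
There was 1 match each for C1qb and C1qc, 3 for Mrc1 and 0 for Cd163, and 7639 of 32851 promoters in the table (23.3%) held at least 1 match in windows of this length. Sequences were found for 4 of the 5 genes looked for, C1qa being the other one. A match describes these letters only. Spi1 itself had 190.0 CPM, and 203.4 and 165.5 in clusters 3 and 20.

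The list of Fc and complement genes, C1q among them, stood over cluster 3 and near cluster 20. Against cluster 3, 6 of 12 genes past the minimum were at least 2-fold higher and 0 lower (median 1.01), and against cluster 20, 0 were higher and 1 lower (median 0.03, which changes sign if ratios are scaled by the median gene). All genes past the minimum had 3.38% higher and 2.46% lower against cluster 3, and 4.31% and 1.68% against cluster 20. Since clustering used the same genes, nothing is read from the counts of the list. Fcgr2b, the inhibitory Fc receptor, had 374 CPM, with 401 in cluster 20 and 179.1 in cluster 3. Vsig4, a receptor for C3 fragments, had 47.7, with 121.1 and 24.6 in clusters 20 and 3. C5ar1, the receptor for C5a, had 233.1, with 228.7 and 201.2 in the same clusters, where clusters 11 and 20 could not be told apart at this depth (1.02-fold, 0.880 to 1.18).

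MHC class II genes were higher in cluster 11 than in either reference. Against cluster 3, 3 of 7 past the minimum were at least 2-fold higher and 0 lower (median 0.99), and against cluster 20, 5 of 7 were higher and 0 lower (median 1.39). Among all genes past the minimum, 3.38% were higher and 2.46% lower than in cluster 3, and 4.31% and 1.68% than in cluster 20. These counts, too, come from genes used in the clustering, and nothing is read from them. H2-Aa, an alpha chain, had 551 CPM in cluster 11. Clusters 3, 14 and 20 had 262.1, 537.5 and 210.6. Cd74, the invariant chain, had 821, and 316, 578 and 287 in the same 3 clusters. Ciita, the master regulator of class II genes, differed less, at 296, against 248 in cluster 3 and 168.5 in cluster 20. The 8 listed genes summed to 2650.1 CPM, near the 2364 of cluster 14. Cluster 6, whose marks include the dendritic cell receptor Flt3 (105.7 CPM, against 2.6 in cluster 11), had 2813. Ccr2 stood at 334 CPM in cluster 11, below cluster 14 (499) and cluster 6 (924), and over cluster 3 (225.5) and cluster 20 (131.0).

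Most genes well above both references encoded ribosomal proteins, whose messages are translated in the cytoplasm. At least 2-fold above clusters 3 and 20 alike stood 77 of 5601 genes, and 0 stood at least 2-fold below both. Of the 77, 68 had a proper gene symbol, of which 44 encoded ribosomal proteins (Rpl or Rps), and the other 9 were mitochondrial. First by the smaller ratio was the hemoglobin gene Hba-a1 (162.6 CPM, against 46.4 in cluster 3 and 52.6 in cluster 20), followed by Rps4x, Hba-a2 and Lyz2, the macrophage lysozyme (461.6, against 160.5 and 150.3). Apoe, the lipid carrier, stood at 650.3, against 207.0 and 280.2. The share of Rpl or Rps genes among the 5601 is not given here. Of 13 ribosomal list genes past the minimum, 9 were at least 2-fold higher than in cluster 3 (median 1.15) and 13 than in cluster 20 (median 1.37). Over all genes past the minimum, 3.38% and 4.31% were higher in these comparisons.

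Mitochondrial transcripts, which nuclei should lack, took 0.449% (0.439 to 0.460) of UMIs, close to the 0.442% of cluster 14 and the 0.417% of cluster 1, while clusters 3 and 20 had 0.173% and 0.152%. The ribosomal list summed to 2355.0 CPM, beside 2527 and 2386 in clusters 14 and 1 and 1106 and 942 in clusters 3 and 20. The hemoglobin genes, which macrophages do not make, summed to 539 CPM, beside 771 and 615, and 193 and 205, in the same clusters. Clusters 1, 11 and 14 had the higher levels of these RNAs among the macrophage-like clusters. Cluster 11 was 1.89-fold (1.51 to 2.41) over cluster 14 in C1qa and 1.97-fold (1.62 to 2.41) over it in C1qb. For C1qc the ratio was 1.73-fold (1.40 to 2.17) and for Vcam1 2.55-fold (1.68 to 4.05). In H2-Aa, clusters 11 and 14 could not be told apart at this depth (1.03-fold, 0.894 to 1.18). The 2 clusters richest in mitochondrial RNA, 18 (8.39%) and 13 (6.18%), had 2793 and 2542 CPM of MHC class II and 674 and 625 of C1q. What part cytoplasmic RNA had in the higher levels of MHC class II, Lyz2, Apoe and C1q was not tested.

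**Figure D4:**
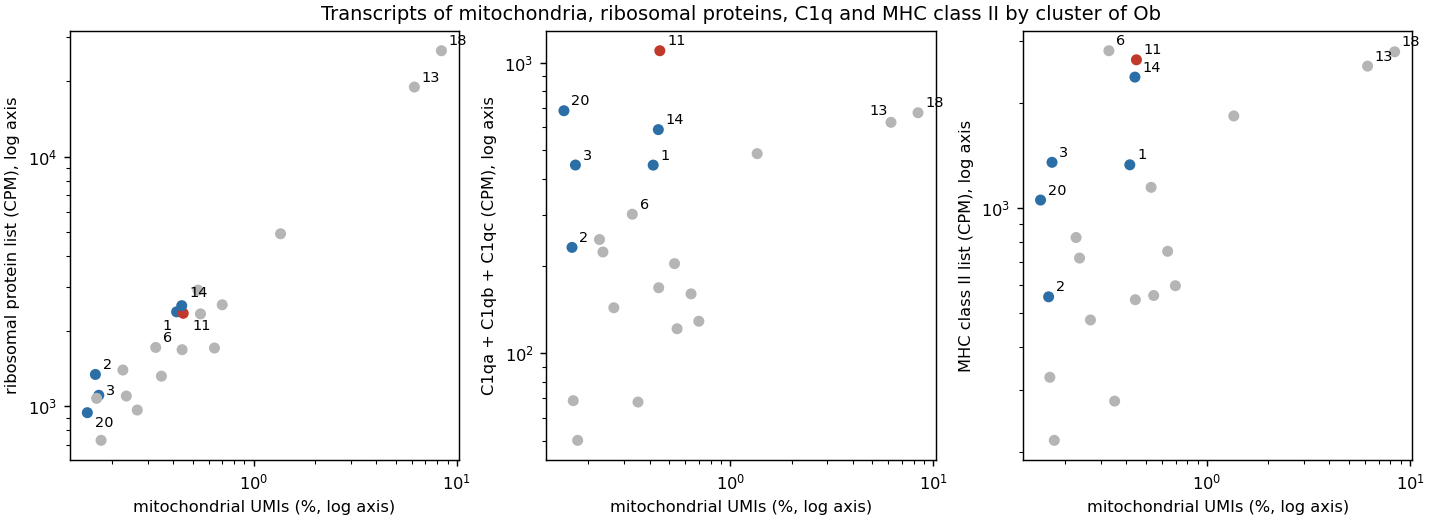
Each point is 1 of the 21 clusters of Ob (red cluster 11, blue the 5 other macrophage-like clusters, gray the rest, with selected cluster numbers), the x axis is the share of mitochondrial UMIs in percent and the y axes are summed CPM of the ribosomal list, C1qa to C1qc and the MHC class II list, all on log axes. Cluster 11 (0.449%) lies with clusters 1 and 14 in the ribosomal protein list (2355.0 CPM), above all clusters in C1q (1102) and beside clusters 6 and 14 in MHC class II (2650.1).

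The other lists were mixed, and nothing is read from their counts. Beside them, 3.38% of all genes were higher and 2.46% lower against cluster 3, and 4.31% and 1.68% against cluster 20. Iron genes stood over cluster 3 for 3 of 9 (Fth1, Tfrc and Cd163). Against cluster 20 they were higher for Fth1 and Ftl1, the ferritin chains, and lower for Cd163. Both directions of Cd163 are given by the rule. Tfrc, the transferrin receptor, had 141.7 CPM, and 63.4 and 224.6 in clusters 3 and 20. Of the glucocorticoid-responsive genes, Fkbp5 had 947, and 386 and 1233 in clusters 3 and 20, and Tsc22d3 had 500.1, 246.5 and 478.5. Lysosome genes were lower than in cluster 3 for 3 of 20 and higher than in cluster 20 for 3 of 19. Among chemokines, Ccl2, the ligand of Ccr2, had 45.0, and 22.1 and 16.4 in clusters 3 and 20. Receptors that clear dying cells were mixed: Mertk had 1166, and 1165 and 867 in clusters 20 and 3, and its relative Axl had 148.2, 60.8 and 155.9. The inflammatory cytokines Il1b (2.0 CPM, 3 counts) and Tnf (6.5 CPM) were low. Of 16 transcription factors past the minimum, 2 (Maf and Klf4) were at least 2-fold over cluster 3 and 1 (Pparg, the lipid-sensing nuclear receptor, 309 against 134.0 CPM) over cluster 20, with 0 lower. Interferon response genes were higher or lower for 0 of 3 in both comparisons.

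**Figure D5:**
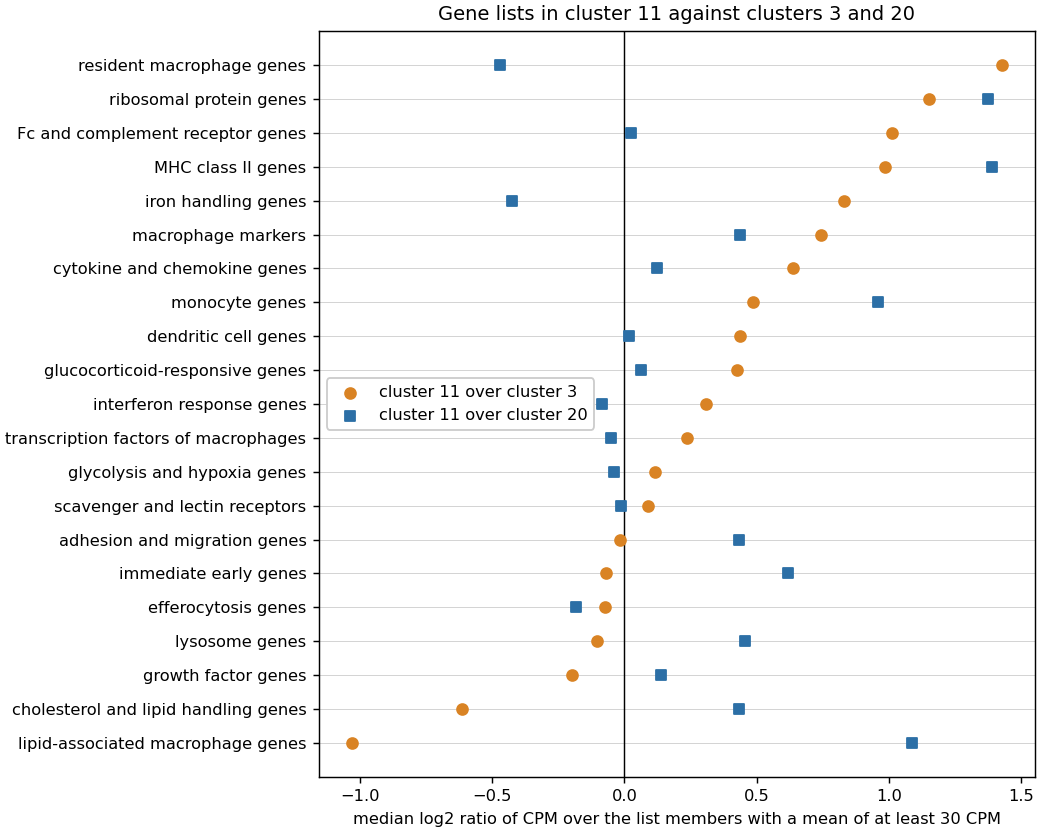
Median log2 ratio of CPM of cluster 11 over cluster 3 (circles) and over cluster 20 (squares) for 21 gene lists with at least 3 members past a mean of 30 CPM. Resident genes lie at 1.43 and -0.47, lipid-associated genes at -1.03 and 1.09, and MHC class II genes at 0.99 and 1.39, beside medians of -0.03 and 0.03 over all genes.

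Genes of cell division were low. Of 12 listed genes, 1 (Diaph3, a formin) passed the minimum against clusters 3 and 20, at 35.3 CPM in cluster 11 against 105.2 in cluster 3 and 25.7 in cluster 20, and Mki67, the proliferation antigen, stood at 5.2.

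Markers of other cell types stood near the levels of the other macrophage-like clusters. In cluster 11, 15 of 16 adipocyte markers had counts and summed to 2296 CPM (1312 to 3368 in the other macrophage-like clusters, 34298 in cluster 7). All 14 fibroblast or progenitor markers summed to 1544 CPM (861 to 2594, and 11530 in cluster 8), 11 of 12 endothelial markers to 87.5 (63.2 to 154.7, and 5378 in cluster 21) and all 12 mesothelial markers to 155.4 (88.3 to 232.0, and 6030.0 in cluster 12). Of 13 T cell or NK cell markers, 11 had counts and summed to 33.3 CPM (21.6 to 102.5, and 8239 in cluster 15), with Cd3d and Ncr1 at 0. The B cell or plasma cell list summed to 584 (247 to 599), the neutrophil list to 65.3 (35.6 to 83.1), and the pericyte or smooth muscle list to 62.7, just over the range of 31.6 to 61.9. The mast cell list summed to 6.53 with Kit, Mcpt4, Tpsb2 and Fcer1a at 0. Of the germ cell list 8 of 10 were at 0 and the sum was 11.8, and all 5 epididymal markers in the table were at 0, which allows up to 1.96 CPM (3 counts) for each. The part of free RNA and doublets in these sums was not tested.

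Against all other nuclei of Ob, 577 of 6046 genes (9.54%) were at least 2-fold higher and 797 (13.2%) at least 2-fold lower in cluster 11. Macrophage markers stood higher for 11 of 12, resident macrophage genes for 14 of 15 and MHC class II genes for 6 of 7, with 0 lower in these lists. Of 14 lipid-associated genes 0 stood higher and 5 lower. Here too the contrast is that of the clustering, and nothing is read from the shares.

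The macrophage-like clusters of the earlier stages give levels to set beside it. Libraries had been clustered separately, a stage is 1 pool, and no test between stages was possible. Cluster 4 was the one macrophage-like cluster of Mid_Ob (3548585 UMIs), and clusters 9 (2502474) and 11 (2273906) those of Ctrl. Their correlation with cluster 11 of Ob, over the same 6416 genes, was 0.913, 0.818 and 0.892. Cd163 stood at 460.3 CPM in cluster 11 of Ob, 332 in Mid_Ob, and 312 and 549 in clusters 9 and 11 of Ctrl. The moderate level lay between those of the control clusters. As Cd163 chose the cluster, nothing is read from this place. Mrc1 stood at 2377, 1602, 1073 and 1555 in the same order, and Csf1r at 363, 249.7, 185.4 and 226.9, both above all 3 clusters of the earlier stages.

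C1q was again highest in cluster 11 of Ob, where the 3 genes summed to 1102 CPM, against 327 in Mid_Ob and 310.1 and 512 in Ctrl. C1qa was 3.81-fold (3.29 to 4.41) over Mid_Ob cluster 4, 3.95-fold (3.34 to 4.67) over Ctrl cluster 9 and 2.05-fold (1.78 to 2.35) over Ctrl cluster 11. Ccl8 stood at 79.0 CPM, against 19.2 in Mid_Ob and 4.4 and 7.9 in Ctrl. Vcam1 stood at 123.4, against 34.7, 88.7 and 40.5, and Ccr2 at 334, against 216.4, 87.5 and 162.7. Gpnmb went the other way, at 127.3 in cluster 11 of Ob, 324 in Mid_Ob, and 459 and 1461 in Ctrl, and Mmp12 at 90.8, 169.9, 324 and 1449. These levels are those of cluster 11 and do not stand for all macrophage-like nuclei of Ob. Cluster 2 of Ob, another macrophage-like cluster, had 3190 CPM of Gpnmb and 2452 of Mmp12.

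By lists, MHC class II genes stood at least 2-fold higher for 3 of 7 over Mid_Ob cluster 4 and for 6 of 7 over each Ctrl cluster, with 0 lower. Over all genes, 261 of 5827 (4.48%) were higher and 309 (5.3%) lower than in Mid_Ob cluster 4, 375 of 6071 (6.18%) and 652 (10.7%) against Ctrl cluster 9, and 389 of 5669 (6.86%) and 295 (5.2%) against Ctrl cluster 11. Resident genes were higher for 3 of 17, 9 of 18 and 3 of 18 against the same clusters, and in each 1 gene, Timd4, was lower. Lipid-associated genes were higher for 3 of 15, 3 of 14 and 2 of 15 and lower for 3, 3 and 7. The ribosomal list was higher for 10, 10 and 13 of 13, and its sum was 2355.0 CPM in Ob against 960.1, 889 and 733. Mitochondrial UMIs were 0.449% in Ob against 0.382%, 0.192% and 0.141%, and hemoglobin genes 539 CPM against 23.7, 135.5 and 37.8. Transcripts of neighbouring organs went with the other libraries: the germ cell list summed to 11.8 CPM in cluster 11 of Ob, 19.4 in Mid_Ob, and 448.8 and 245.0 in Ctrl, and the epididymal list to 0, 1156, 8.0 and 5.3. The adipocyte markers summed to 2296 CPM in cluster 11 of Ob, against 1454, 3399 and 801, and the fibroblast or progenitor markers to 1544, against 766, 1504 and 455. Fabp4 and Fabp5, fatty acid carriers of adipocytes as well, were among the lipid-associated genes counted as higher in all 3 comparisons. The part of these differences between libraries in the stage values was not tested.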

How the data were processed

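Nuclei of pooled epididymal fat gave 1 10x Genomics library each for Ctrl, Mid_Ob and Ob. The authors used Cell Ranger, which aligns with STAR. For each tool the version, and for the tables the build, was not given in the sources used here. The study's methods keep nuclei with under 5% mitochondrial UMIs and then remove doublets with DoubletFinder. In the Ob table, clusters 18 (8.39%) and 13 (6.18%) lie over that limit, so it had not been applied to every nucleus of this table, and whether doublets had been removed from it is not known. The signal column the authors deposited is a mean count per gene and cluster, in which summed UMIs are divided by the summed size factor of the nuclei. The deposited log2 column holds the authors' fold change of a cluster against the rest of its library, and the deposited p-value column its adjusted p-value. Neither was used.

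Whole counts were recovered from the step between mean counts (all whole within 0.001), by code tested on simulated data. The Ob table lists 26350 genes, of which 16770 had counts in cluster 11. Clusters 3, 14 and 20 held 6921996, 517257 and 1709558 UMIs. CPM have exact Poisson intervals and ratios conditional binomial (Clopper-Pearson) intervals, all at 95%. A gene counted as higher or lower at 2-fold or more with a mean of at least 30 CPM in the pair. No test was run, as each stage is 1 library. Numbers of nuclei and shared barcodes cannot be read from means per cluster.

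Cluster 11 and all gene lists, markers and limits were chosen with earlier results of these data known. Named genes were list members, the 12 highest and 12 lowest ratios of each comparison within Ob, the 15 highest and 15 lowest against clusters 3 and 20 together, and the 15 with the largest ratio to the next cluster among genes highest in cluster 11, without predicted or mitochondrial genes. The text takes examples from these. Alternatives were the total, the scaling, the minimum, the fold, the genes kept, the reference nuclei and the measure of likeness. Promoters came from a RefSeq table of GRCm38.p6, whose build may differ from that of the authors. Computations ran in Python 3.11.15 (pandas 2.3.3, numpy 2.4.6, scipy 1.17.1), and figures in matplotlib 3.10.9.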

Additional observations from a re-analysis of the deposited data

How the results depend on the processing

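The share of cluster 11 was 7.01% of the UMIs of the macrophage-like clusters and 10.4% without cluster 2, an alternative chosen after seeing the data, against 1.37% of all Ob. Counts of genes followed the limits. With a mean of at least 10 CPM, 331 genes were higher and 300 lower than in cluster 3, 528 higher and 172 lower than in cluster 20, and 1537 lower than in the other nuclei. With a mean of at least 100 CPM these were 74 and 52, 86 and 39, and 317 higher and 298 lower. At 1.5-fold they were 509 and 428, 644 and 316, and 1172 higher than in the other nuclei. At 3-fold they were 32 and 50, 34 and 16, and 209 higher. Among genes highest in a macrophage-like cluster, 60 were higher than in cluster 3, 51 higher and 46 lower than in cluster 20, and 383 higher and 50 lower than in the other nuclei. Against the 5 other macrophage-like clusters summed, 214 were higher and 256 lower, and against the 4 without cluster 2, also chosen after seeing the data, 83 and 152. The correlation with cluster 20 was 0.942 with a mean of at least 100 CPM. Scaling by the median gene ratio and leaving out mitochondrial genes moved no count by over 1.5 times. For single genes, 109 alternative values kept their sign and their side of 2-fold and 8 did not. Mertk against cluster 20 changed from 0.00 to -0.03 on the log2 scale under the median scaling, and the other 7 concern the reference nuclei and stayed positive. That scaling lowers ratios to cluster 20 by 0.03. Positive list medians smaller than this shift change sign, such as that of Fc and complement receptor genes. No paired analysis was possible because each stage is 1 library. At this depth, levels in cluster 11 rest on 705 UMIs for Cd163 and 189 for Vcam1, and differences between pooled mice were not measured.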
